A study of Mus musculus with 9 samples.

Results

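The serpins are a family of structurally related proteins, most of which inhibit serine proteases. Their transcripts were followed along the mouse epididymis, the coiled duct in which sperm leaving the testis mature and are stored. The members were all gene symbols made of Serpin, a clade letter from a to i and a number, which gave 63 of the 24059 symbols in the count table. All animals were wild type C57BL/6J, 9 months old, and the labels name no treatment. The caput lies next to the testis, the corpus is the middle of the duct, and the cauda stores mature sperm at the far end. Bulk tissue RNA was sequenced in 3 libraries per segment. Separate mice for the libraries of a segment are not stated, so the p-values reflect spread among libraries, which may be technical. In bulk tissue, fewer cells of a type and less RNA per cell cannot be told apart.

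An inhibitory serpin presents an exposed loop that a protease cuts, and the cut locks the protease into an inactive complex that endocytic receptors clear. Clade A members are mostly secreted plasma proteins and include hormone carriers that inhibit nothing. Clade B members stay mostly inside cells, where they guard against leaked granule proteases and cathepsins. The remaining clades regulate clotting, plasmin formation, complement and collagen folding. In the male tract, proteases and their inhibitors act on the surface of sperm and on the fluid around them.

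Gene counts totalled 3013470 to 3946335 per library in caput, 2600061 to 6076479 in corpus, with 5095298 to 6072094 in cauda. Levels of a gene across segments are given as CPM, counts divided by the TMM-scaled library size, on which 1 count stood for 0.155 to 0.374 CPM. Levels of different genes are compared as the deposited RPKM, which are also scaled by gene length. No count in the 3 libraries of a segment allowed a level of up to 0.301 CPM in caput, 0.208 in corpus and up to 0.178 in cauda, for counting error only. Principal cell genes were abundant in every library, at 47613 to 92614 CPM summed over 9 markers, while 9 liver markers summed to at most 3.10 CPM. Corpus replicate 2 stood apart from the other corpus libraries in connective tissue genes. The 10 fibroblast and matrix markers summed to 1132 CPM in corpus replicate 2, against 587 in corpus replicate 1 and 426 in corpus replicate 3. Calls of single tested serpins that depend on that library are given with and without it.

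A few serpins carried nearly all of the family's transcripts. Of the 63 members, 13 had no count in any library and 22 had 1 to 8 counts over all 9 libraries. A further 11 had 14 to 77 counts in total and were not tested. The remaining 17 passed the filter on low counts, and 12 of these reached a mean of at least 10 CPM in their highest segment. The filter keeps a gene that is well covered in a single segment, so genes near 0 elsewhere, such as Serpinf2, Serpinb12 and Serpina7, were bound to differ once they were kept. Together the serpins held 0.114%, 0.119% and 0.134% of the counts of the caput libraries, 0.280%, 0.295% and 0.296% in corpus and 0.850%, 0.911% and 0.942% in cauda, ordered from lowest to highest. The ranges of the 3 segments did not overlap. Serpina1f alone held 54.6% to 56.5% of the serpin counts in caput, 73.0% to 84.8% in corpus and 80.5% to 82.8% in cauda. Without Serpina1f, the other serpins held 0.0545% ± 0.0038 of counts in caput, 0.0588% ± 0.0187 in corpus and 0.166% ± 0.0107 in cauda (SD, n = 3 each). Corpus replicate 2 held 0.0800%, and the mean of the other 2 corpus libraries was 0.0482%, below caput.

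**Figure D1:**
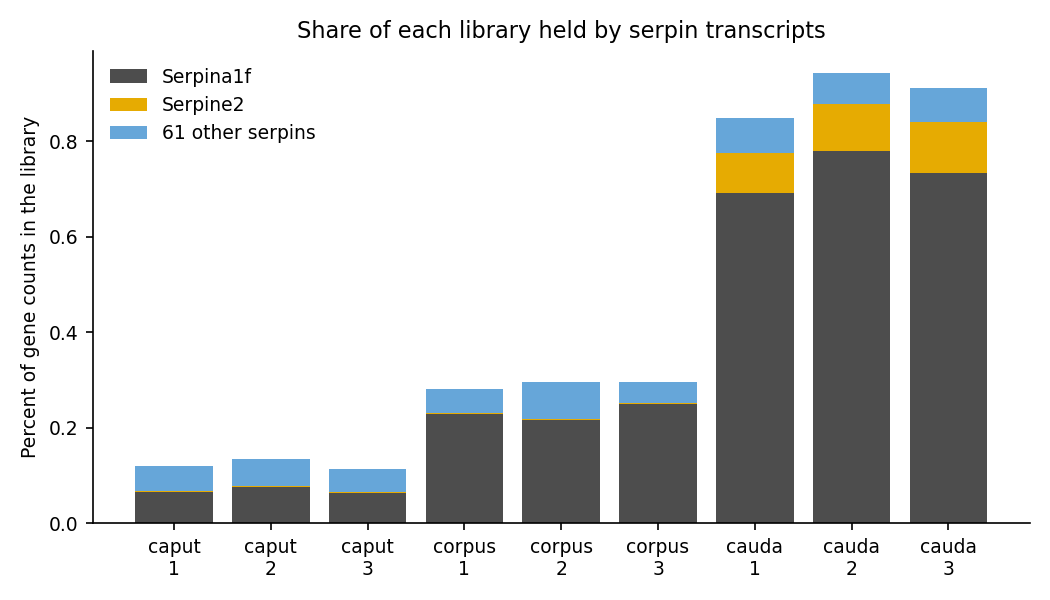
Share of all gene counts (percent, vertical axis) held by Serpina1f, Serpine2 and the other serpins in each of the 9 libraries, by segment and replicate. The cauda bars reach 0.850% to 0.942%, and the Serpine2 part is wide in the cauda libraries and a thin line at most in the others.

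The DNA just before the starts of Serpina1f, Serpine2, Serpinf2 and Serpinb12 is given because these 4 serpins reached 10 CPM and stood at least 2-fold above both other segments in 1 segment. The sequences are RefSeq entries on GRCm38.p6, written 5′ to 3′ on the strand of the gene, and bases inside an annotated exon were left out. The RefSeq starts of Serpine2 and Serpinf2 lie inside the longer spans that GENCODE gives these genes. Their printed stretches end at 32 and 91 bases before those starts, and the 250-base windows described below include the bases left out. Capitals mark matches, on either strand, to the androgen receptor half-site AGAACA, the TATA box TATAAA, the GC box GGGCGG, the CCAAT box CCAAT or the ETS core CCGGAA.
Serpina1f, chr12:103695530-103695779, minus strand: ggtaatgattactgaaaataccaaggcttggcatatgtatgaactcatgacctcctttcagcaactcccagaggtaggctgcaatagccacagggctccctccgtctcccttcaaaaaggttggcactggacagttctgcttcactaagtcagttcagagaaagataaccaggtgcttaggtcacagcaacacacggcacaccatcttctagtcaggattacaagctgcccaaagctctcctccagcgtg
Serpine2, chr1:79858697-79858915, minus strand: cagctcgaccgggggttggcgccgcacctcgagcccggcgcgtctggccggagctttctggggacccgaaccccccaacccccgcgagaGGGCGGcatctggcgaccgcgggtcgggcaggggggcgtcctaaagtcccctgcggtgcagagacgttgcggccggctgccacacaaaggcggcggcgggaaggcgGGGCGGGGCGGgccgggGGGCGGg
Serpinf2, chr11:75439592-75439751, minus strand: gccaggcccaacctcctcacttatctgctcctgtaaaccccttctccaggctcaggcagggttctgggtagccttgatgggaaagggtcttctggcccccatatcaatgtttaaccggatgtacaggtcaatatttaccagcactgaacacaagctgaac
Serpinb12, chr1:106934199-106934448, plus strand: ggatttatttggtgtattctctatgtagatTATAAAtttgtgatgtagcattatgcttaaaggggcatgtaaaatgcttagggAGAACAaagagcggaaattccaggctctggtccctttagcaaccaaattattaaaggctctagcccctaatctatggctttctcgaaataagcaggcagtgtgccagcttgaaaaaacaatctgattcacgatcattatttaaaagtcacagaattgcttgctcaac

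The 4 upstream windows differed in G and C content and, in part, in the motifs they held. The 250 bases before the start of Serpine2 were 78.8% G and C, against 49.2% for Serpina1f, 57.2% for Serpinf2 and 38.0% for Serpinb12, and the median over all 32817 upstream windows was 52.4%. Serpine2 had 6 GC boxes in that window, 2 of which overlap each other by a base, and 4 of the 6 lie in the printed stretch. The 15 tested serpins with such an entry had 18 windows, since a gene can have more than 1. A GC box was present in 32.7% of all windows and in 5 of these 18, before Serpinb5, Serpinb6a, Serpinb6b, Serpine2 and Serpinh1. Serpinb12 had the letters TATAAA at -220 to -215 from the start, found anywhere in 12.4% of all windows, and an androgen receptor half-site at -167 to -162, found in 16.1%. The windows of Serpina1f and Serpinf2 held none of the 5 motifs, which says only that these letters are not in them. Among the 18 serpin windows, 2 held the androgen receptor half-site, before Serpina3n and Serpinb12, and 4 held TATAAA, before Serpina7 and Serpinb12. The CCAAT box stood in 33.8% of all windows and in 4 of these 18, before Serpinb5, Serpinb6a, Serpinf1 and Serpini1. The ETS core stood in 12.018% of all windows and in 1 of these 18, before Serpinb6a.

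Serpina1f and Serpine2 were the secreted serpins that increased most toward the cauda. Serpina1f is grouped by name and position with the genes of alpha-1-antitrypsin, the plasma inhibitor of neutrophil elastase (chromosome 12, 103688044 to 103695529 on mm10). It had 663, 762 and 655 CPM in caput libraries, 2225, 2037 and 2520 in corpus, with 6979, 7959 and 7376 in cauda. Every corpus library was above every caput library, and every cauda library was above every corpus library. The log2 change was -1.70 (SE 0.10) for caput minus corpus, -3.42 (0.10) for caput minus cauda and -1.72 (0.10) for corpus minus cauda, with edgeR adjusted p of 6.03e-09, 1.07e-11 and 1.79e-08. Per length it was the highest serpin in all 3 segments, at 120 ± 13.1 RPKM in caput, 354.8 ± 22.2 in corpus, with 1229 ± 72.1 in cauda (SD, n = 3 each).

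Serpine2 encodes protease nexin-1, an inhibitor of thrombin and of the plasminogen activators (chromosome 1, 79794197 to 79861180). It had 13.8, 14.3 and 17.4 CPM in caput, 18.3, 26.8 and 18.5 in corpus, with 838, 1005 and 1071 in cauda. The cauda libraries stood far above all 6 others. The log2 change was -5.98 (SE 0.16) for caput minus cauda and -5.48 (0.15) for corpus minus cauda, with edgeR adjusted p of 3.28e-12 and 3.99e-11. It stood at 247 ± 31.8 RPKM in cauda, second to Serpina1f and above Serping1, with no overlap of their libraries. Caput was also lower than corpus, by a log2 change of -0.51 (edgeR adjusted p = 0.0351). That last difference did not pass in fits that left out a library, with an edgeR adjusted p of 0.107 (caput replicate 1), 0.104 (caput replicate 2) or 0.228 (corpus replicate 2).

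Markers of other tissues also differed among the segments. The 8 accessory gland markers summed to 1.01 to 2.11 CPM in caput, 19.2 to 25.6 in corpus, with 188 to 255 in cauda. The 4 that were tested passed the filter through corpus or cauda and not through caput, so their lower level in caput was fixed by it. Most of the cauda sum was the seminal vesicle gene Svs1, at 0 CPM in caput, 0.856 ± 0.89 in corpus, with 202 ± 33.2 in cauda. Most of the corpus sum was Pate4, at 1.46 ± 0.578 CPM in caput, 21.2 ± 2.49 in corpus, with 6.35 ± 0.519 in cauda. Pbsn was at 0 in every library. The 12 male germ cell and sperm markers were all called lower in caput than in corpus and than in cauda. Of all tested genes, 29.5% and 27.5% were called in these directions. The germ cell and sperm markers summed to 181 to 208, 489 to 536 and 695 to 1032 CPM in the 3 segments. The 9 smooth muscle markers summed to 2063 to 2205 CPM in caput, 271 to 864 in corpus, with 3028 to 5626 in cauda. Of these 9, 3 were called higher in caput than in corpus, near the 28.2% of all tested genes. Against cauda, 8 were called lower in caput and 1 higher, where 27.5% and 27.2% of all tested genes were. Actg2 was higher in caput, at 1243 ± 108 CPM in caput, 17.2 ± 9.83 in corpus, with 205 ± 67.6 in cauda. The part of these tissues in the cauda levels of Serpine2 and Serpina1f was not tested.

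Serpinf2 was abundant in caput and had a single count in all of corpus and in all of cauda. It encodes alpha-2-antiplasmin, the main inhibitor of plasmin in blood (chromosome 11, 75431732 to 75439591). Its counts were 436, 537 and 679 in caput, 0, 0 and 1 in corpus, with 0, 1 and 0 in cauda. In CPM it had 147, 168 and 179 in caput, and its mean was 0.0628 in corpus and 0.0667 in cauda. The ratio of caput to corpus was 2394-fold (95% counting interval 429 to 94602), and the ratio of caput to cauda was 2801-fold (95% counting interval 502 to 110705). Serpinf2 passed the filter through caput alone, so both differences were bound to pass and the calls add no support (edgeR adjusted p of 2.85e-12 and 1.73e-12). The fitted log2 changes, 10.74 and 10.90, rested on single counts in the low segments. Caput minus corpus was 10.06 if corpus replicate 2 was left out, or 12.53 if corpus replicate 3 was, and caput minus cauda was 12.54 without cauda replicate 2. At 41.1 ± 3.22 RPKM in caput it stood beside Serping1 at 43.3 ± 7.92, a difference within their spread. The liver is its usual source, and the 9 liver markers summed to 0.312 to 3.04 CPM in caput libraries. Its neighbour Serpinf1, 9030 bases away on the same strand with no protein-coding gene between them, did not share this profile.

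Serpinf1, Serping1, Serpinh1 and Serpina3n, serpins known from connective tissue, plasma and the acute phase response, varied most within corpus. Serping1 encodes the inhibitor that controls the first component of complement and the contact system (chromosome 2, 84765387 to 84775444). It had 140, 168 and 123 CPM in caput, 236, 408 and 167 in corpus, with 368, 292 and 355 in cauda. Caput libraries were below all cauda libraries and overlapped with corpus. The log2 change was -0.92 (SE 0.25, edgeR adjusted p = 0.00638) for caput minus corpus and -1.24 (SE 0.25, edgeR adjusted p = 0.000861) for caput minus cauda. Without corpus replicate 2, caput minus corpus was -0.48 (edgeR adjusted p = 0.0194). Corpus minus cauda was -0.32 (edgeR adjusted p = 0.317), and leaving out that library gave -0.77 (edgeR adjusted p = 0.00137).

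Serpinf1 encodes pigment epithelium-derived factor, a non-inhibitory member that restrains blood vessel growth (chromosome 11, 75409769 to 75422701). It had 21.6, 22.8 and 16.9 CPM in caput, 14.2, 34.9 and 14.7 in corpus, with 34.2, 26.4 and 34.1 in cauda. Its 3 contrasts did not pass the test with all 9 libraries, with edgeR adjusted p of 0.717 for caput minus corpus, 0.0747 for caput minus cauda and 0.163 for corpus minus cauda. Without corpus replicate 2, the same log2 changes were 0.48, -0.65 and -1.13, with edgeR adjusted p of 0.0492, 0.00228 and 0.000225, so that corpus was then the lowest segment. The caput minus cauda difference also passed without corpus replicate 3 (edgeR adjusted p = 0.0314).

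Serpinh1 encodes the collagen chaperone of the endoplasmic reticulum (chromosome 7, 99345376 to 99353239). It had 58.1, 54.3 and 42.2 CPM in caput, 43.1, 70.2 and 36.5 in corpus, with 55.3, 60.2 and 62.97 in cauda, and the 3 segments overlapped. No contrast passed with all libraries (edgeR adjusted p of 0.981, 0.382 and 0.389). Without corpus replicate 2, caput minus corpus was 0.38 (edgeR adjusted p = 0.0367) and corpus minus cauda was -0.61 (edgeR adjusted p = 0.00328). Serpina3n, an acute phase inhibitor of leukocyte proteases (chromosome 12, 104406729 to 104414329), had 9.79, 11.2 and 7.12 CPM in caput, 12.4, 22.2 and 10.9 in corpus, with 24.1, 20.4 and 16.1 in cauda. Caput was lower than cauda by a log2 change of -1.12 (SE 0.28, edgeR adjusted p = 0.00467). Caput minus corpus, at -0.75 (edgeR adjusted p = 0.0444), did not pass in 4 fits that each left out a library. The edgeR adjusted p was then 0.0827 (caput replicate 1), 0.170 (caput replicate 3), 0.328 (corpus replicate 2) or 0.0570 (cauda replicate 2). Corpus minus cauda, at -0.37 (edgeR adjusted p = 0.273), was -0.82 (edgeR adjusted p = 0.0119) without corpus replicate 2. Of the 36-base windows in its transcripts, 16.9% occur in another gene, mostly other Serpina3 copies, so its counts could include reads of those copies.

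All 4 genes had their highest corpus level in corpus replicate 2, where the connective tissue markers were also highest. The 10 fibroblast and matrix markers summed to 719 to 882 CPM in caput, 426 to 1132 in corpus, with 1094 to 1307 in cauda. Of these 10, 7 were called lower in caput than in cauda and 1 higher, against 27.5% and 27.2% of all tested genes. The higher one was Pdgfra, at 349 ± 25.2, 40.3 ± 20.5 and 55.1 ± 13.1 CPM in the 3 segments. Between caput and corpus, 1 was higher and 3 lower in caput, against 28.2% and 29.5% of all tested genes. Between corpus and cauda, 0 were higher and 2 lower in corpus, against 20.4% and 18.8%. Dcn stood at 188 ± 41 CPM in caput, 284 ± 121 in corpus, with 604 ± 89.1 in cauda. The part of connective tissue content in the 4 serpin levels was not tested.

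**Figure D2:**
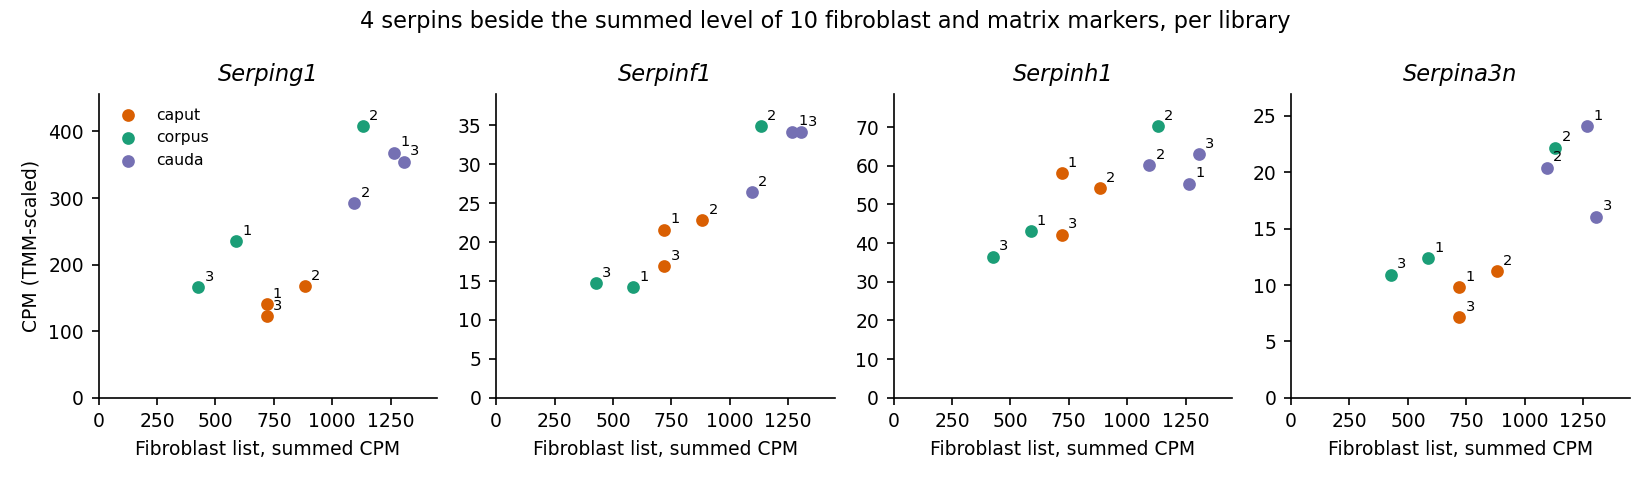
Level of Serping1, Serpinf1, Serpinh1 and Serpina3n (CPM, vertical axes) against the summed CPM of 10 fibroblast and matrix markers (horizontal axis), with each point a library numbered by replicate. Corpus replicate 2 lies at 1132 CPM of markers, among the cauda libraries, while the other 2 corpus libraries lie at 426 and 587.

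Of the intracellular clade B serpins, Serpinb9, Serpinb6a and Serpinb6b were measured well in every segment. Serpinb9, whose human counterpart inhibits granzyme B, had 66.2, 61.8 and 56.5 CPM in caput, 54.3, 53.2 and 64.6 in corpus, with 102, 97.5 and 96.4 in cauda (chromosome 13, 33003250 to 33017957). Cauda libraries stood above all others. Its log2 change was -0.69 (SE 0.09) for caput minus cauda and -0.78 (0.09) for corpus minus cauda, with edgeR adjusted p of 3.67e-05 and 1.84e-05, while caput minus corpus was 0.09 (edgeR adjusted p = 0.449). Serpinb6b, an intracellular inhibitor related to human SERPINB6 (chromosome 13, 32965209 to 32979067), was graded along the duct. It had 15.9, 13.7 and 14.8 CPM in caput, 31.1, 25.1 and 33.3 in corpus, with 53.0, 47.0 and 51.9 in cauda, with no overlap between segments. Its log2 changes were -1.0 (SE 0.14), -1.78 (0.13) and -0.77 (0.12) for caput minus corpus, caput minus cauda and corpus minus cauda, with edgeR adjusted p of 4.40e-05, 1.05e-07 and 0.000142.

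Serpinb6a, its paralog and an inhibitor of cathepsin G-like proteases (chromosome 13, 33917918 to 34002794), was flatter. It had 42.9, 40.2 and 39.8 CPM in caput, 31.1, 40.3 and 38.2 in corpus, with 54.5, 47.6 and 55.5 in cauda. It was lower in caput than in cauda by a log2 change of -0.36 (edgeR adjusted p = 0.0120) and in corpus than in cauda by -0.50 (edgeR adjusted p = 0.00194). The strand setting of the counting is not given in the sources used here, and exons of Serpinb6a overlap other genes on the opposite strand, Nqo2 and Ripk1 among them, so its counts may hold reads of those genes. Counts summed over Serpinb6a to Serpinb6e were also lower in caput than in corpus, by -0.25 (edgeR adjusted p = 0.0290). In caput, Serpinb6a stood at 11.9 ± 0.751 RPKM and Serpinb6b at 4.36 ± 0.341, whereas in cauda Serpinb6a, Serpinb6b and Serpinb9 lay together at 14.5 ± 1.37, 14.2 ± 1.04 and 15.2 ± 0.479 RPKM. The libraries of these 3 genes overlapped in cauda.

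Serpinb5 and Serpinb12 lie next to each other on chromosome 1 and were both lowest in caput. Serpinb5 encodes maspin, an epithelial member that does not inhibit proteases in the usual way (106861173 to 106883348). It had 13.5, 12.2 and 11.6 CPM in caput, 25.5, 24.2 and 25.05 in corpus, with 22.4, 24.0 and 19.7 in cauda. Caput was lower than corpus by a log2 change of -1.0 (SE 0.14, edgeR adjusted p = 3.75e-05) and than cauda by -0.83 (SE 0.14, edgeR adjusted p = 0.000209), and corpus minus cauda was 0.18 (edgeR adjusted p = 0.281). Serpinb12, an inhibitor of trypsin-like proteases in humans (106934449 to 106957080), had no count in any caput library. It had 19.5, 18.8 and 21.1 CPM in corpus, with 10.1, 7.41 and 6.13 in cauda. Caput was at least 65.6-fold lower than corpus and at least 26.1-fold lower than cauda, taking 3 counts over the caput libraries as the limit (edgeR adjusted p of 1.07e-07 and 2.22e-06). Serpinb12 passed the filter through corpus and cauda and not through caput, so this lower level in caput was fixed by it. Corpus was higher than cauda by a log2 change of 1.33 (SE 0.21, edgeR adjusted p = 0.000378). The 7 basal cell markers summed to 422 to 475 CPM in caput, 489 to 529 in corpus, with 397 to 437 in cauda, and the part of basal cells in these levels was not tested.

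**Figure D3:**
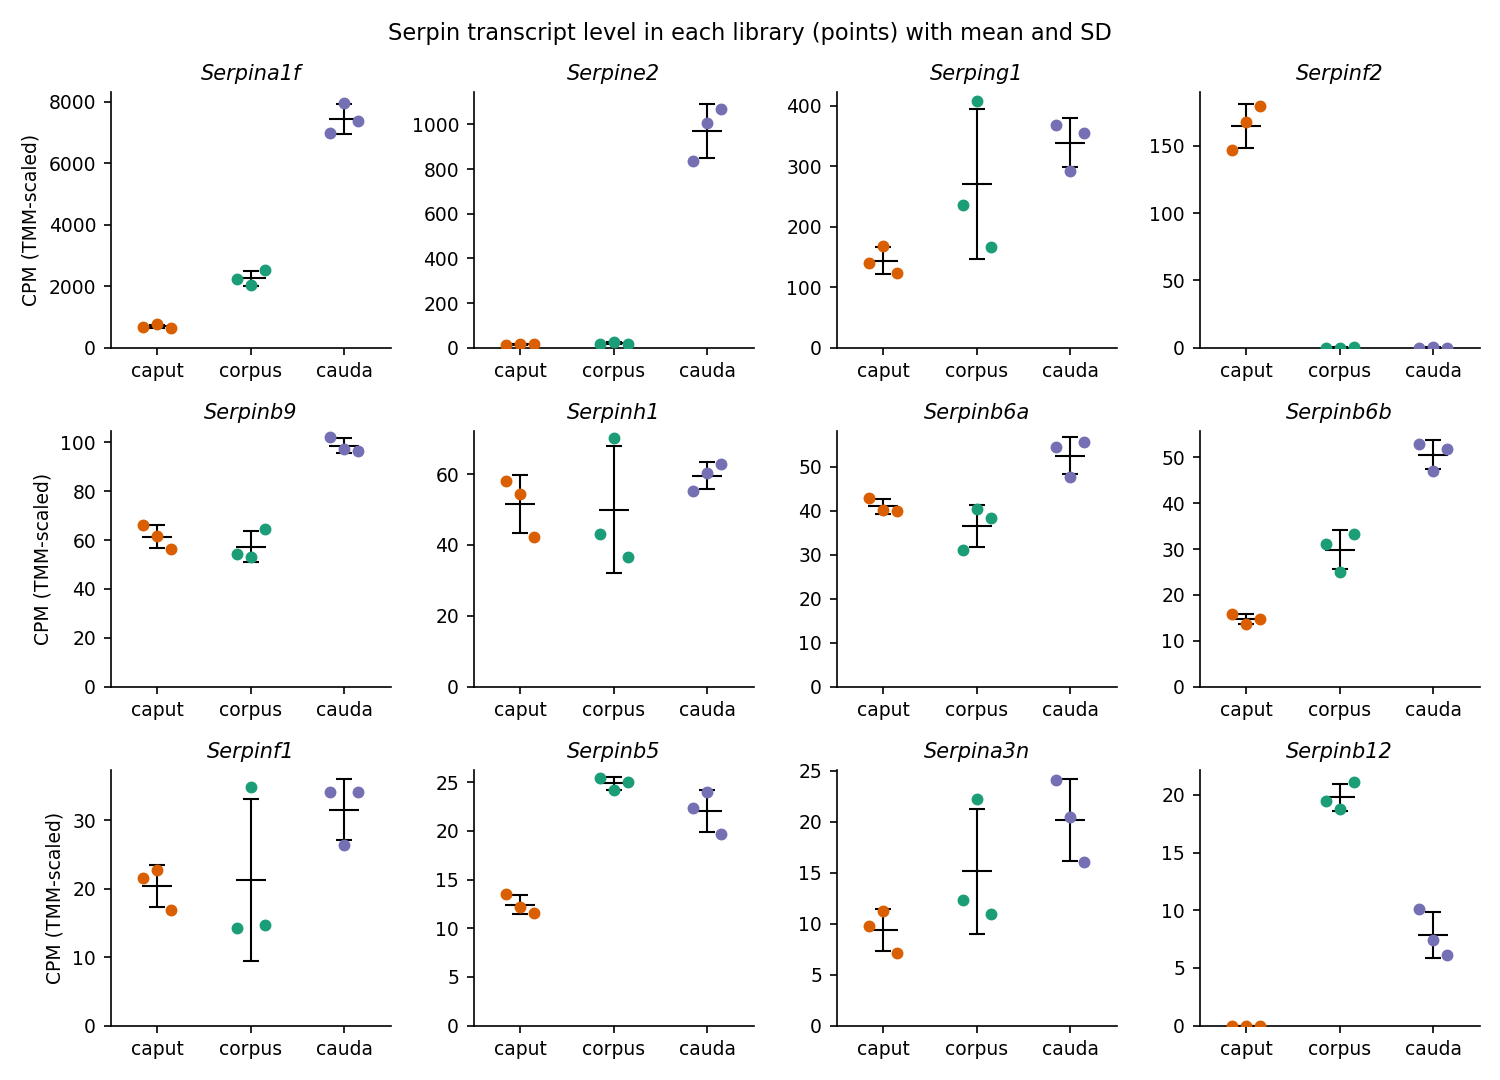
TMM-scaled CPM (vertical axes, each from 0) of the 12 serpins with a mean of at least 10 CPM in their highest segment, in the 3 libraries of caput, corpus and cauda (points), with the mean and SD (bars). Serpinf2 is seen in caput, Serpine2 in cauda, and the wide corpus bars of Serping1, Serpinf1 and Serpinh1 have corpus replicate 2 as their highest point.

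Of the 5 tested serpins under 10 CPM, Serpina7, Serpinb8 and Serpini1 were called. Each passed the filter through its highest segment alone (Serpina7 corpus, the others caput), so its values are a description and the call adds no support. Serpina7 encodes thyroxine-binding globulin, a hormone carrier (chromosome X, 139079257 to 139085236). It had 0, 1 and 1 counts in caput, 9, 36 and 32 in corpus, with 14, 9 and 10 in cauda, or 0.192 ± 0.168, 4.99 ± 1.42 and 1.95 ± 0.389 CPM (SD, n = 3 each). The ratio of corpus to caput was 26.6-fold (95% counting interval 7.11 to 223), and corpus was higher than cauda by a log2 change of 1.40 (edgeR adjusted p = 0.00382). Serpinb8, an inhibitor of furin in humans, stood at 5.28 ± 0.541 CPM in caput, 1.65 ± 0.613 in corpus, with 1.54 ± 0.652 in cauda. It was higher in caput by log2 changes of 1.62 (edgeR adjusted p = 0.00235) over corpus and 1.77 (edgeR adjusted p = 0.00118) over cauda.

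Serpini1 encodes neuroserpin, an inhibitor of tissue plasminogen activator. It had 2.51 ± 0.253 CPM in caput, 0.634 ± 0.225 in corpus, with 1.71 ± 0.296 in cauda, and caput was higher than corpus by a log2 change of 1.83 (edgeR adjusted p = 0.00232). Its corpus minus cauda change of -1.29 (edgeR adjusted p = 0.0263) no longer passed without corpus replicate 1 (edgeR adjusted p = 0.0667), corpus replicate 2 (0.0581), corpus replicate 3 (0.0638) or cauda replicate 1 (0.0980). Serpina3g, a cathepsin inhibitor of activated lymphocytes, had 1.96 ± 0.695, 1.85 ± 0.983 and 2.83 ± 0.507 CPM in the 3 segments, and no contrast passed (edgeR adjusted p of 0.890, 0.273 and 0.347).

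The counts of called serpins are set beside those of all tested genes. Of the serpins called, Serpinf2, Serpinb8 and Serpini1 passed the filter through caput alone, Serpina7 through corpus alone, and Serpinb12 through corpus and cauda. For these genes, the call of a segment that passed over one that failed adds no support. The counts below include such calls. By edgeR's quasi-likelihood F test over the 3 segments, 13 of the 17 tested serpins differed at an adjusted p threshold of 0.05, against 69% of all 14168 tested genes. Between caput and corpus, 3 serpins were higher in caput and 8 lower, where 28.2% and 29.5% of all genes were called in these directions and 57.7% in either. Without corpus replicate 2, the serpins called higher in caput numbered 5, with Serpinf1 and Serpinh1 added, and those called lower numbered 6. A change of at least 4-fold was called for 3 serpins, against 12.6% of all genes. These were Serpina7, Serpinb12 and Serpinf2, whose difference the filter had fixed. Between caput and cauda, 2 were higher in caput and 10 lower, against 27.2% and 27.5% of all genes, or 54.7% in either direction. At 4-fold or more the count was 5 serpins, the same 3 with Serpina1f and Serpine2, against 11.6% of all genes. Between corpus and cauda, 2 were higher in corpus and 6 lower, against 20.4% and 18.8% of all genes, or 39.2% in either direction. At 4-fold or more, Serpine2 was the 1 serpin called, against 4.81% of all genes. The numbers at least 2-fold above both other segments were 2 in caput (Serpinf2 and Serpinb8), 2 in corpus (Serpina7 and Serpinb12) and 2 in cauda (Serpina1f and Serpine2), where 9.92%, 4% and 3.66% of all genes met that rule. The median log2 change of the 17 serpins was -0.14 for caput minus corpus, -0.69 for caput minus cauda and -0.48 for corpus minus cauda, and all tested genes had medians of -0.0048, -0.01 and 0.01. The comparisons share their segments' libraries.

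**Figure D4:**
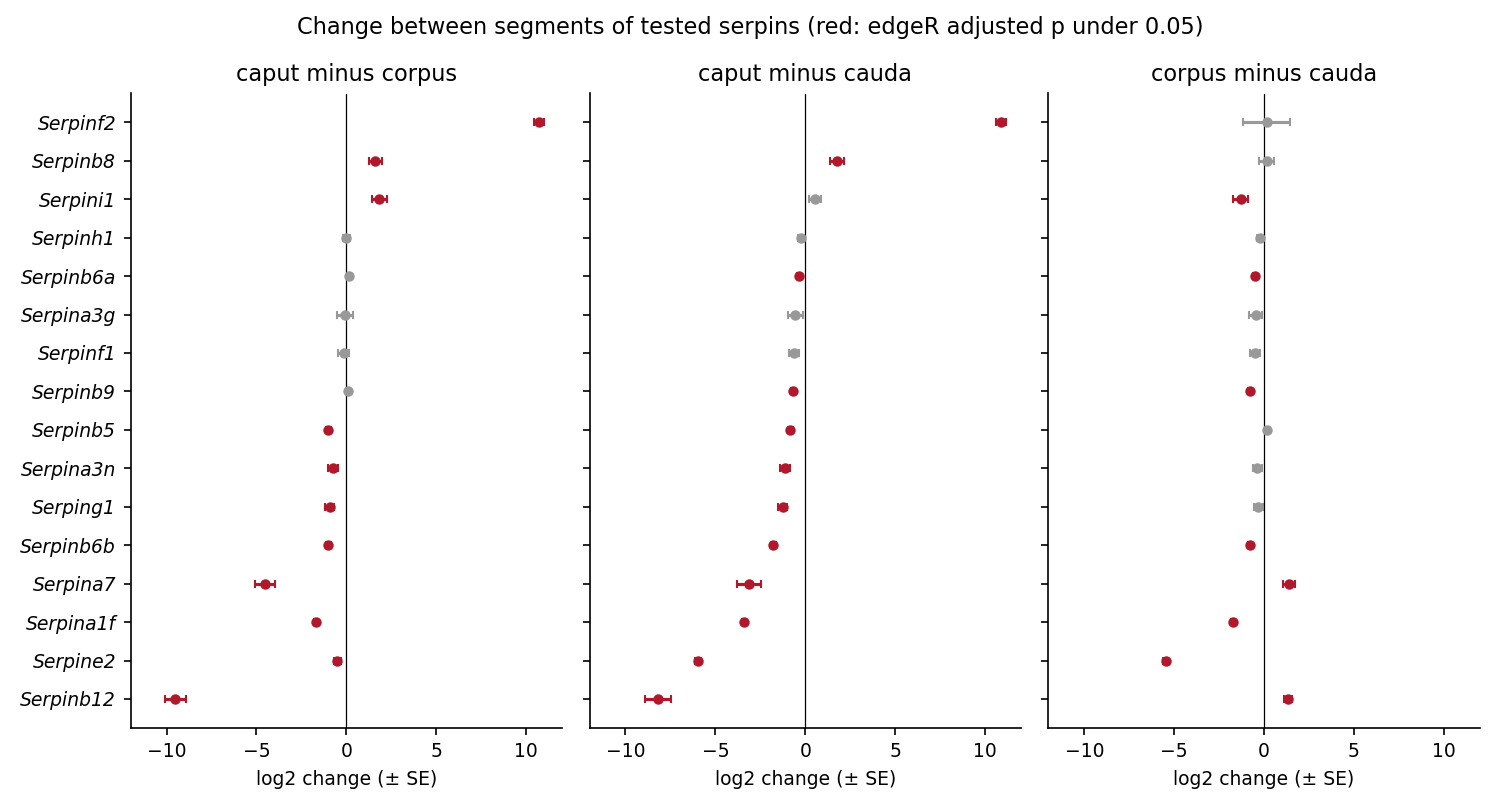
Log2 change with SE (horizontal axes) of tested serpins for caput minus corpus, caput minus cauda and corpus minus cauda, with positive values higher in the segment named first. Red marks an edgeR adjusted p under 0.05, and Serpinf2 lies far to the right and Serpinb12 far to the left in both caput contrasts.

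Most serpin genes lie in 3 genomic clusters, and each cluster held a few well-counted genes among neighbours with few or no counts. How reads matching several genes were counted is not given in the sources used here, so copies that share sequence may have lost reads. On chromosome 12, 24 clade A genes span 799.5 kb, of which Serpina1f, Serpina3n and Serpina3g were tested. Serpina1f lies 32626 bases from Serpina1b with no protein-coding gene between them. Serpina1a to Serpina1e, the liver-type antitrypsin genes, had 10 counts together over all 9 libraries, and their sum reached means of 0.104 CPM in caput, 0.291 in corpus, with 0.304 in cauda. These 5 genes share 40.1% to 83.8% of their 36-base windows with other genes, mostly each other, while Serpina1f shares 0.534%. Serpina5, the protein C inhibitor, was among the 5 genes of this cluster with no count in any library.

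On chromosome 1, 12 clade B genes span 749.3 kb, and Serpinb5, Serpinb12 and Serpinb8 were tested while 7 had no count. On chromosome 13, 15 clade B genes span 1160.7 kb, and Serpinb6a, Serpinb6b and Serpinb9 were tested. The other Serpinb9 copies had at most 6 counts in a library, and the counts of Serpinb9 and its copies, summed, gave log2 changes of -0.69 for caput minus cauda and -0.79 for corpus minus cauda (edgeR adjusted p of 3.77e-05 and 1.69e-05). The summed Serpina3 copies had 15.6 CPM in caput, 22.8 in corpus, with 29.2 in cauda, and caput was lower than cauda by a log2 change of -0.92 (edgeR adjusted p = 0.00559). Serpinb1a, the counterpart of the human neutrophil elastase inhibitor, was not tested and had 0 to 4 counts in caput libraries, 3 to 29 in corpus, with 8 to 11 in cauda. Counts summed over Serpinb1a to Serpinb1c were 4, 1 and 5 in caput, 4, 33 and 13 in corpus, with 15, 17 and 15 in cauda, and corpus replicate 2 was the highest library. This sum was called lower in caput than in corpus (log2 change -1.70, edgeR adjusted p = 0.0182) and than in cauda (-1.45, edgeR adjusted p = 0.0420). With so few counts in caput, the filter may have fixed these differences.

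**Figure D5:**
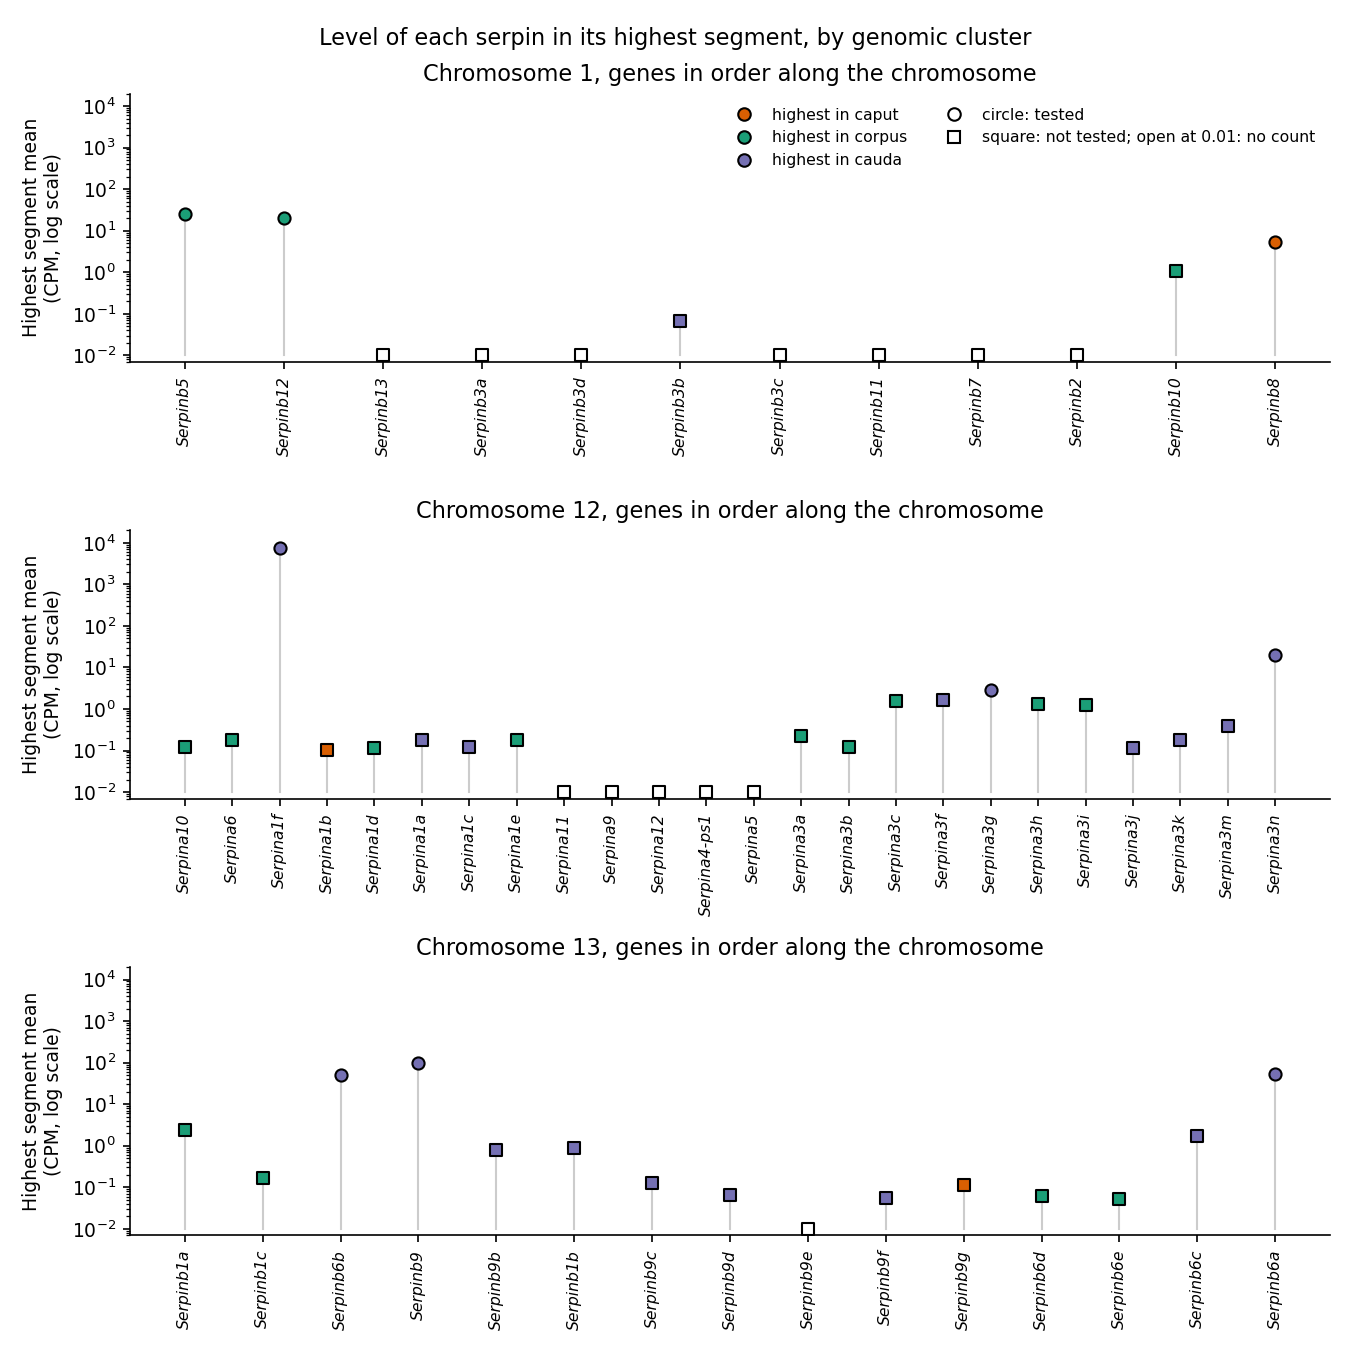
Mean CPM in the highest of the 3 segments (vertical axis, log scale) for the serpins of the clusters on chromosomes 1, 12 and 13, drawn in their order along the chromosome. Colour gives the highest segment, circles are tested genes, squares are genes not tested, and open squares at the bottom had no count.

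Counts of called genes among the proteases that serpins act on are set against all tested genes, of which 57.7% were called for caput minus corpus, 54.7% for caput minus cauda and 39.2% for corpus minus cauda. Of the 8 plasminogen activation genes, 6 were tested, with 1 higher and 3 lower in caput than in corpus, 1 higher and 2 lower in caput than in cauda, and 2 higher and 0 lower in corpus than in cauda. These counts, 4, 3 and 2 of 6, were near the all-gene shares of 57.7%, 54.7% and 39.2%. Plau, the urokinase-type activator, had 15.5 ± 4.93 CPM in caput, 260 ± 16.5 in corpus, with 137 ± 9.08 in cauda (caput minus corpus -4.05, SE 0.15, edgeR adjusted p = 6.21e-11). Plat, the tissue-type activator, had 32.4 ± 6.44 CPM in caput, 11.7 ± 4.50 in corpus, with 12.9 ± 2.07 in cauda (caput minus cauda 1.33, SE 0.24, edgeR adjusted p = 0.000386). Plg, the plasminogen gene, had at most 2 counts in a library. The thrombin gene F2 had no count in any library, and of the 10 thrombin and protein C genes the 6 tested gave 1 higher and 2 lower in caput than in corpus, 1 higher and 1 lower than in cauda, and 1 higher and 1 lower in corpus than in cauda. The totals of 3, 2 and 2 of 6 did not exceed the all-gene shares of 57.7% and 54.7% in the caput contrasts or 39.2% in the last.

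Of 26 kallikrein genes, 8 were tested, and 7 of these passed the filter through corpus or cauda and not through caput, so a lower level in caput was fixed for them. All 8 were called lower in caput than in cauda, 4 lower in caput than in corpus and 4 lower in corpus than in cauda, where 27.5%, 29.5% and 18.8% of all genes were called in these directions. Klk1b27 had 0.200 ± 0.177 CPM in caput, 0.749 ± 0.324 in corpus, with 49.2 ± 9.33 in cauda. It was kept through cauda alone, so its lower level in corpus was fixed as well. Passing through corpus was not checked for the other kallikreins, so the 4 lower in corpus than in cauda may include more such genes. Of the 17 membrane and epithelial serine proteases, 11 were tested, and 2 were higher and 4 lower in caput than in corpus, with the same counts for caput against cauda and 2 higher and 3 lower in corpus than in cauda. These 6, 6 and 5 of 11 were near the all-gene shares of 57.7%, 54.7% and 39.2%. Prss8, the epithelial protease prostasin, had 57.8 ± 3.78 CPM in caput, 151 ± 2.90 in corpus, with 123 ± 12.9 in cauda. None of the 12 leukocyte granule proteases, the targets of several clade B members, had enough counts to be tested, and Elane, neutrophil elastase, had no count. Cathepsins (11 of 13 tested) had 5 higher and 4 lower in caput than in corpus, 6 and 4 against cauda, and 2 higher and 6 lower in corpus than in cauda, or 9, 10 and 8 of 11, against 57.7%, 54.7% and 39.2% of all genes. Proprotein convertases, such as the furin that Serpinb8 inhibits in humans, had 3 of 8 tested higher and 2 lower in caput in both of its contrasts, or 5 of 8, near the 57.7% and 54.7% of all genes.

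Of the endocytic receptors that clear serpin complexes, all 7 were tested, with 6 higher and 1 lower in caput than in corpus, 3 higher and 2 lower in caput than in cauda, and 2 higher and 3 lower in corpus than in cauda, against 57.7%, 54.7% and 39.2% of all genes in either direction. Lrp2, megalin, had 38.3 ± 2.36 CPM in caput, 487 ± 82.3 in corpus, with 932 ± 56.1 in cauda (caput minus cauda -4.61, SE 0.13, edgeR adjusted p = 5.78e-12). Vldlr had 86.6 ± 15.1, 23.2 ± 1.96 and 10.3 ± 3.38 CPM in caput, corpus and cauda. The list of 19 collagen and collagen modification genes includes the collagens on which Serpinh1 acts. It had 5 higher and 2 lower in caput than in corpus, 4 higher and 7 lower in caput than in cauda, and 1 higher and 5 lower in corpus than in cauda. These 7, 11 and 6 of 19 compare with 57.7%, 54.7% and 39.2% of all genes.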

How the data were processed

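Messenger RNA of mouse caput, corpus and cauda epididymis (3 libraries each) was sequenced (36 bases, single-end) from KAPA stranded kit libraries, per the labels' protocols. Bowtie2 2.2.0, FastQC 0.11.2, CASAVA 1.8.2 and mm10 are listed in the submitters' processing notes. Which counting tool, annotation and strand setting served was not given in the sources used here. Per gene symbol, the authors deposited raw counts and RPKM values, per the file headers, and the 216531 RPKM values of the 2 sheets were identical (100%).

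Counts of all genes were fitted in R 4.3.3 with edgeR 4.0.16 (filterByExpr, which kept 14168 genes, TMM, quasi-likelihood, 1 mean per segment over all 9 libraries). The contrasts were two-sided, and p-values were Benjamini-Hochberg adjusted over all tested genes. Each SE is the size of the log2 change divided by the square root of F. The biological coefficient of variation was 10.1%. RPKM values were used to set genes side by side, without a test. The fit was tested on simulated data. Library pairs of a segment differed by more than counting noise (mean chi-square per gene 1.64 to 7.18, where 1 is sampling noise).

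The members, lists and tests were chosen with earlier results of these data known. Full values are given for the tested serpins with a mean of at least 10 CPM in their highest segment. From each list of other genes up to 4 members, those with the widest called change, could be named; genes given by counts alone were named after their values were seen. Positions, overlaps and shared windows come from GENCODE M21 (mm10), in which all 63 symbols were found, and upstream sequences from RefSeq (52 of 63 matched). A planned comparison of reactive loop sequences was not run, since no protein sequences were used here. Alternatives were other scalings, filters and tools (DESeq2 1.42.0, limma 3.58.1), a replicate block, fits of the 2 compared segments, summed paralogs and leaving out each library. Values of 1 tested serpin and of 1 clearance receptor are not reported here.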

Additional observations from a re-analysis of the deposited data

How the results depend on the processing

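The share of counts held by serpins moved when Rn45s and the 10 highest genes of each library left the denominator, to 0.138% in caput, 0.322% in corpus and 1.04% in cauda, with the order of segments kept. Leaving out each library gave mean shares of 0.117% to 0.127% in caput, 0.287% to 0.295% in corpus and 0.880% to 0.927% in cauda. Leaving out each library in turn, serpins higher in caput than in corpus numbered 3 to 5, lower in caput than in corpus 6 to 9, lower in corpus than in cauda 5 to 9, and differing among the 3 segments 12 to 15. Every alternative that gave a value kept the number of serpins enriched at least 2-fold at 2 per segment. Among comparisons of a single tested serpin between the reported fit and an alternative, 862 kept their direction where called and their side of the threshold, 18 lost a call, 12 gained a call, and Serpinf1 in caput minus corpus turned to 0.48 without corpus replicate 2 and ranged down to -0.40 without corpus replicate 3. Calls of Serpina3n and Serpine2 between caput and corpus, and of Serpini1 between corpus and cauda, were the ones lost, under 8, 4 and 6 alternatives. For Serpina3n these include DESeq2 (adjusted p = 0.0552) and limma voom (adjusted p = 0.0807). The causes were not tested. Replicate numbers are shared between segments, and the labels do not say what they mark. Deviations of libraries with the same number had correlations of -0.046 to 0.269. Libraries with different numbers had correlations of -0.245 to 0.190, a lower range that overlaps the first. These values do not settle whether the numbers mark pairs, and the main fit did not use them. With the number as a replicate block, serpins lower in caput than in cauda numbered 11 in place of 10, through Serpinf1 (edgeR adjusted p = 0.0428), and the other counts were the same. Library depth limits what can be detected for the serpins that were not tested in the reported fit. Of these, Serpinb1a was called between caput and corpus with no filter on low counts and with a filter of 10 counts in 3 libraries. It was also called there without caput replicate 1 and without corpus replicate 1. Serpina3c was called between caput and corpus without corpus replicate 3.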
